A study of Homo sapiens with 9 samples.

Results

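ATF4 and 9 genes of the integrated stress response were followed over arrays labelled with 3 levels of Myc in P493-6, a human B-cell line long grown in culture. The genes were taken as a named list, ATF4, DDIT3, TRIB3, CHAC1, ASNS, DDIT4, SESN2, PPP1R15A, ATF5 and VLDLR, and every probe set with 1 of these symbols as its only platform symbol was used. That gave 17 of 54675 probe sets, and 10 of the 19775 genes that could be named. The 9 arrays comprise 4 labelled HighMyc, 3 labelled LowMyc and 2 labelled NoMyc. The labels give no treatment, dose, time or culture for any group, so p-values measure only the spread between arrays, which may be technical. As background, P493-6 is known for a MYC transgene that is turned down by tetracycline, a feature of the line and so of all 3 groups.

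The integrated stress response is a relay that several stresses share. Kinases that sense missing amino acids, misfolded protein in the endoplasmic reticulum, heme shortage or double-stranded RNA phosphorylate the translation initiation factor eIF2, which lowers protein synthesis in general and raises translation of a few messages with short upstream reading frames, ATF4 among them. ATF4 then switches on genes for amino acid supply, and with its target CHOP, the product of DDIT3, genes of feedback and cell death. The arrays measured mRNA, so neither eIF2 phosphorylation nor ATF4 protein was observed.

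The MYC probe set ranged over 11326 to 15404 (intensity) in HighMyc, and over 1443 to 2526 in LowMyc. The library labelled NoMyc 1 read 2803, above all 3 LowMyc arrays and against its label, while NoMyc replicate 2 read 416. MYC was not called between LowMyc and NoMyc (0.87 ± 0.64, adjusted p = 0.484), and these groups overlapped. Calls against NoMyc that were lost when 1 or the other NoMyc array was left out (written as without either NoMyc array) are therefore named beside their values. In LowMyc, fewer of all genes were called higher in those fits too. A smaller count of a list there is thus not in itself particular to the list. The same share for HighMyc is not given here. Markers of B cells were present in all groups, with a summed intensity of 7 measured markers of 18960 to 26020 in HighMyc, 22920 to 25490 in LowMyc and 39210 to 47390 in NoMyc. All 7 were lower in HighMyc than in NoMyc and 4 were lower in LowMyc than in NoMyc, and without the library labelled NoMyc 1 these counts were 1 and 2. Over all genes, 23.2% were called in either direction in HighMyc against NoMyc and 19.8% in LowMyc against NoMyc. All 8 myeloid markers averaged under an intensity of 100 in every group. Of the measured markers of T and NK, myeloid, plasma, erythroid and platelet, fibroblast and epithelial cells, 1 was called, the epithelial cadherin CDH1, in LowMyc against NoMyc (3.22 ± 0.75, adjusted p = 0.0154), and it was not called without either NoMyc array. CDH1 read 23.8, 130, 30.9 and 27.4 in HighMyc, 507, 147 and 168 in LowMyc, and 21.1 and 29.4 in NoMyc, and its part in the results was not tested. The GAPDH excess of the 3' over the 5' signal (log2) was 0.01 to 0.24 in HighMyc and LowMyc, and 0.25 and 0.42 in NoMyc. The same measure for ACTB was -0.049 to 0.19 in HighMyc, -0.074 to 0.022 in LowMyc, and 0.0039 and -0.011 in NoMyc. The part of cell state or RNA quality in the results was not tested, and less RNA per cell cannot be told apart from fewer cells that express a gene.

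ATF4, the transcription factor at the centre of the pathway, was higher in both HighMyc and LowMyc than in NoMyc. It read 3053, 3615, 3001 and 2855 in HighMyc, 3526, 3040 and 2830 in LowMyc, and 2047 and 1591 in NoMyc. The NoMyc arrays lay below all 7 others, and the HighMyc and LowMyc ranges overlapped. The log2 difference from NoMyc (10.82 ± 0.26, SD, n = 2) was 0.79 ± 0.15 (SE) for HighMyc (11.61 ± 0.15, SD, n = 4; adjusted p = 0.00407 by limma) and 0.79 ± 0.15 for LowMyc (11.61 ± 0.16, SD, n = 3; adjusted p = 0.00706). Each is a rise of 1.73-fold. The LowMyc call was lost without NoMyc replicate 2 (0.61, adjusted p = 0.0634). HighMyc and LowMyc differed by -0.0002 with a 95% interval of -0.29 to 0.29.

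**Figure D1:**
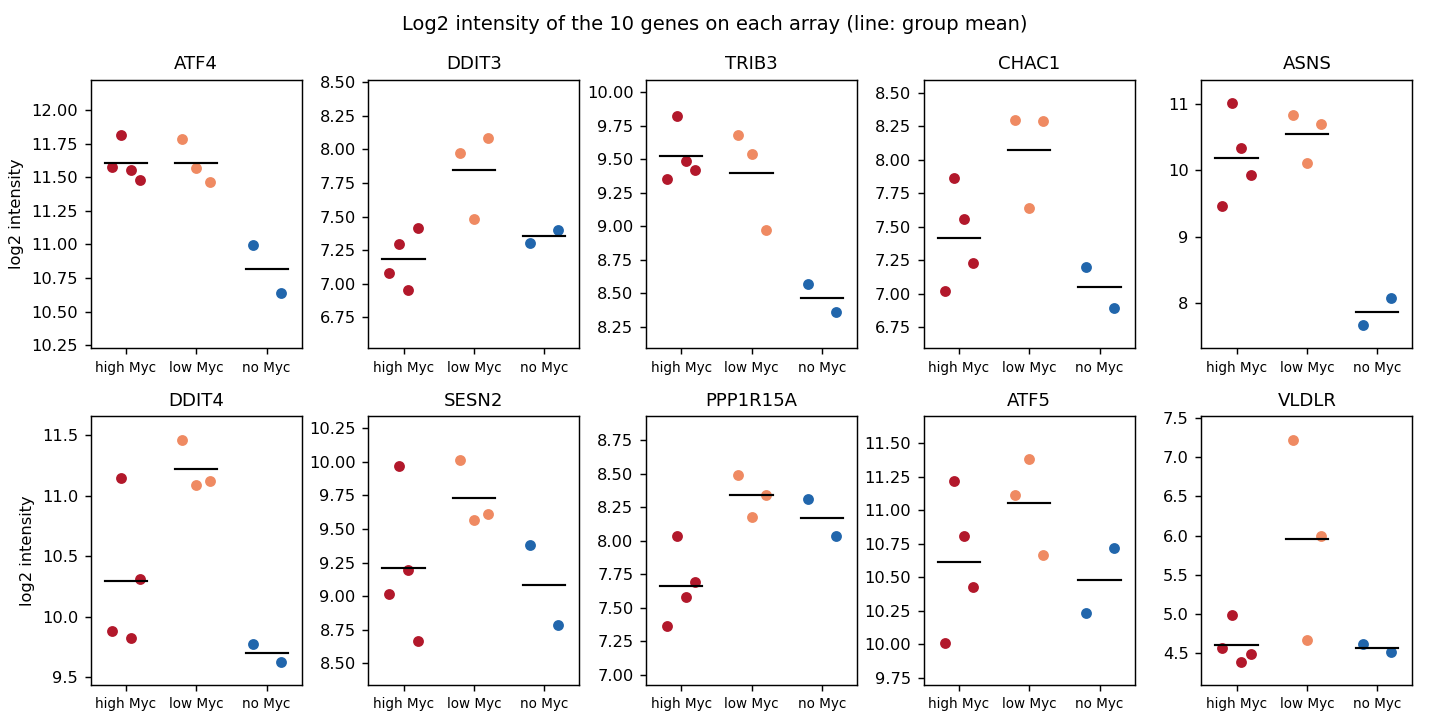
Log2 intensity (vertical axes, each with its own range) of the 10 genes on every array, by group from HighMyc through LowMyc to NoMyc. Points are arrays and lines are group means. ATF4, TRIB3, ASNS and DDIT4 are lowest on both NoMyc arrays, and every gene but TRIB3 has a mean in LowMyc at or above that in HighMyc.

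The stretch before the ATF4 start is shown because it holds an E-box, CACGTG, the letters that MYC and MAX are known to bind. The 250 bases upstream of the RefSeq start, chr22:39520309-39520558 on the plus strand of GRCh38.p14, carry the match at 82 to 77 bases before the start, in capitals. A second RefSeq start, a few bases downstream, has the same E-box in its window. E-boxes occurred in 8.77% of the 27305 genes with such a window, and ATF4 was the 1 gene of the 10 with a match. The match is a description and no sign of binding.
ATF4: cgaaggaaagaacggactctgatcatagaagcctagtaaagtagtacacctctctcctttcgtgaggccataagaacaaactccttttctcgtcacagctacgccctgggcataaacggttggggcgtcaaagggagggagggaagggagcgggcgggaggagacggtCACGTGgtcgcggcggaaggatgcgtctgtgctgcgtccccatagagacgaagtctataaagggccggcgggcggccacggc

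ASNS, asparagine synthetase, an enzyme whose gene is a standard readout of ATF4, had the largest rise of the 10 genes in both comparisons with NoMyc. It read 707, 2063, 1294 and 975 in HighMyc, 1817, 1107 and 1656 in LowMyc, and 205 and 269 in NoMyc. All 7 arrays of HighMyc and LowMyc lay above both NoMyc arrays, and HighMyc and LowMyc overlapped widely. ASNS was 4.96-fold higher in HighMyc than in NoMyc (log2 2.31 ± 0.38, adjusted p = 0.00225) and 6.37-fold higher in LowMyc than in NoMyc (2.67 ± 0.40, adjusted p = 0.00214). Both calls held in all 9 fits that left out 1 array, with differences of 2.04 to 2.55 and 2.47 to 2.89. Within HighMyc the highest array read 2.92 times the lowest, and HighMyc differed from LowMyc by -0.36 (95% interval -1.12 to 0.41). A second ASNS probe set read 18.2 to 20.7 on all arrays and gave no call.

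CHAC1, an enzyme that breaks down glutathione, was higher in LowMyc than in NoMyc. It read 130, 233, 188 and 150 in HighMyc, 314, 200 and 312 in LowMyc, and 147 and 119 in NoMyc. All 3 LowMyc arrays lay above both NoMyc arrays, and the HighMyc arrays spanned the gap between them. The log2 difference was 1.02 ± 0.28 for LowMyc against NoMyc (2.03-fold, adjusted p = 0.0297) and 0.37 ± 0.26 for HighMyc against NoMyc (adjusted p = 0.443). The call was lost without LowMyc replicate 1 or 3 or without either NoMyc array, with adjusted p of 0.0709 to 0.178.

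ASNS and CHAC1 are shown upstream of their starts because they are the 2 genes of the 10 whose RefSeq window holds TGATGNAA on either strand, the core of the C/EBP-ATF response element through which ATF4 acts with C/EBP partners. The match in ASNS lies 68 to 61 bases before the start on the gene's own strand, in chr7:97872409-97872658, minus strand. In CHAC1 the reverse complement lies 209 to 202 bases before the start, in chr15:40953221-40953470, plus strand. Matches are in capitals and the build is GRCh38.p14. The element occurred in 4.46% of all genes with a window.
ASNS: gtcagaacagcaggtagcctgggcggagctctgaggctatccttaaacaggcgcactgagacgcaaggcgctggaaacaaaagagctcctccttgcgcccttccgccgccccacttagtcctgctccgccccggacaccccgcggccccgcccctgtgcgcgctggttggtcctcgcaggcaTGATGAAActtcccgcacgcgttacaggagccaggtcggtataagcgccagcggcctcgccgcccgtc
CHAC1: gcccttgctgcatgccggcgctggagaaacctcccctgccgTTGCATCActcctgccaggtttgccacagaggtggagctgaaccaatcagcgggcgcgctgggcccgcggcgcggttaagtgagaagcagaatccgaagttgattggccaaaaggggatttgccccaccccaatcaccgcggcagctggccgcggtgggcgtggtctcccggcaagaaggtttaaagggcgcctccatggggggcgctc

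TRIB3, a pseudokinase that ATF4 and CHOP induce and that restrains them in turn, was higher in both HighMyc and LowMyc. It read 652, 907, 717 and 686 in HighMyc, 819, 743 and 502 in LowMyc, and 379 and 328 in NoMyc, with no overlap of either group with NoMyc. The rise was 2.08-fold in HighMyc (log2 1.06 ± 0.21, adjusted p = 0.00519) and 1.91-fold in LowMyc (0.93 ± 0.22, adjusted p = 0.0157), both against NoMyc. The call in HighMyc was lost without NoMyc replicate 2 (0.95, adjusted p = 0.0542). That in LowMyc was lost without LowMyc replicate 1 or either NoMyc array (0.79 to 1.04, adjusted p of 0.0503 to 0.108), with the median of the TRIB3 probe sets (0.76, adjusted p = 0.0604) and in a fit of those 2 groups alone (0.93, adjusted p = 0.0529). A second TRIB3 probe set, fitted among all 54675, gave 0.65 (adjusted p = 0.139) and 0.58 (adjusted p = 0.231). TRIB3 in HighMyc differed from LowMyc by 0.12 (95% interval -0.29 to 0.54).

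PPP1R15A encodes GADD34, the subunit that directs a phosphatase to eIF2 and so ends the response. It read 165, 262, 191 and 207 in HighMyc, 360, 290 and 325 in LowMyc, and 318 and 262 in NoMyc. HighMyc lay below LowMyc without overlap, and its highest array equalled the lower NoMyc array. The log2 difference was -0.67 ± 0.16 between HighMyc and LowMyc (adjusted p = 0.0595), -0.51 ± 0.18 between HighMyc and NoMyc (adjusted p = 0.0839), and 0.17 ± 0.19 between LowMyc and NoMyc (adjusted p = 0.72). None was called. Without HighMyc replicate 2 the first reached -0.79 (adjusted p = 0.0127) and the second -0.63 (adjusted p = 0.0187). A second PPP1R15A probe set gave -0.80, -0.55 and 0.24 in the same order. On it the highest HighMyc array equalled the lowest LowMyc array, at 164.

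DDIT3, the gene of CHOP, a factor known for its part in stress-induced cell death, read 135, 157, 124 and 171 in HighMyc, 252, 179 and 271 in LowMyc, and 158 and 169 in NoMyc. LowMyc lay above all 6 other arrays. The log2 difference was -0.66 ± 0.16 between HighMyc and LowMyc (adjusted p = 0.0661) and 0.50 ± 0.20 between LowMyc and NoMyc (adjusted p = 0.125), and neither was called. Without LowMyc replicate 2 both passed, at -0.85 (adjusted p = 0.0202) and 0.68 (adjusted p = 0.0245). HighMyc differed from NoMyc by -0.17 (95% interval -0.59 to 0.26).

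DDIT4 and SESN2 encode REDD1 and sestrin 2, inhibitors of the growth kinase mTORC1. DDIT4 read 945, 2265, 907 and 1274 in HighMyc, 2824, 2180 and 2223 in LowMyc, and 874 and 792 in NoMyc. LowMyc stood above NoMyc by 1.52 ± 0.35 (log2), or 2.87-fold (adjusted p = 0.014), a call lost without either NoMyc array (1.59 and 1.45, adjusted p of 0.0791 and 0.0866). One HighMyc array, replicate 2, read within the LowMyc range, and the other 3 below it. HighMyc differed from LowMyc by -0.93 ± 0.29 (adjusted p = 0.126) and, without HighMyc replicate 2, by -1.22 (adjusted p = 0.00393). SESN2 read 516, 1002, 586 and 405 in HighMyc, 1034, 759 and 783 in LowMyc, and 665 and 441 in NoMyc. SESN2 gave no call, with 0.13 (95% interval -0.62 to 0.87) for HighMyc and 0.65 (-0.14 to 1.44) for LowMyc against NoMyc.

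ATF5, a factor related to ATF4 whose translation is controlled in a similar way, read 1034, 2378, 1791 and 1378 in HighMyc, 2213, 2673 and 1626 in LowMyc, and 1206 and 1687 in NoMyc. On this probe set all 3 groups overlapped. The differences from NoMyc were 0.14 (95% interval -0.60 to 0.87) for HighMyc and 0.58 (-0.20 to 1.35) for LowMyc. Its 3 other probe sets gave 0.11 to 0.47 and 0.18 to 1.14, also without a call. On the probe set with 1.14, LowMyc read 944 to 2135 and lay above NoMyc, at 537 and 712, without overlap.

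VLDLR, a lipoprotein receptor, lay near the lowest intensities in 2 of the 3 groups. It read 23.7, 31.8, 21.1 and 22.5 in HighMyc, 149, 25.4 and 63.7 in LowMyc, and 24.7 and 23.0 in NoMyc. The signal above the rest came from LowMyc replicates 1 and 3. The difference between LowMyc and NoMyc was 1.39 ± 0.58 (adjusted p = 0.146), and without LowMyc replicate 2 it was 2.03 (adjusted p = 0.00762) and with array weights 2.04 (adjusted p = 0.0256). HighMyc and LowMyc differed by -1.35 ± 0.48 (adjusted p = 0.184), and by -1.996 without LowMyc replicate 2 (adjusted p = 0.0171). HighMyc averaged 4.61 ± 0.26 and NoMyc 4.57 ± 0.07 (log2, SD).

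**Figure D2:**
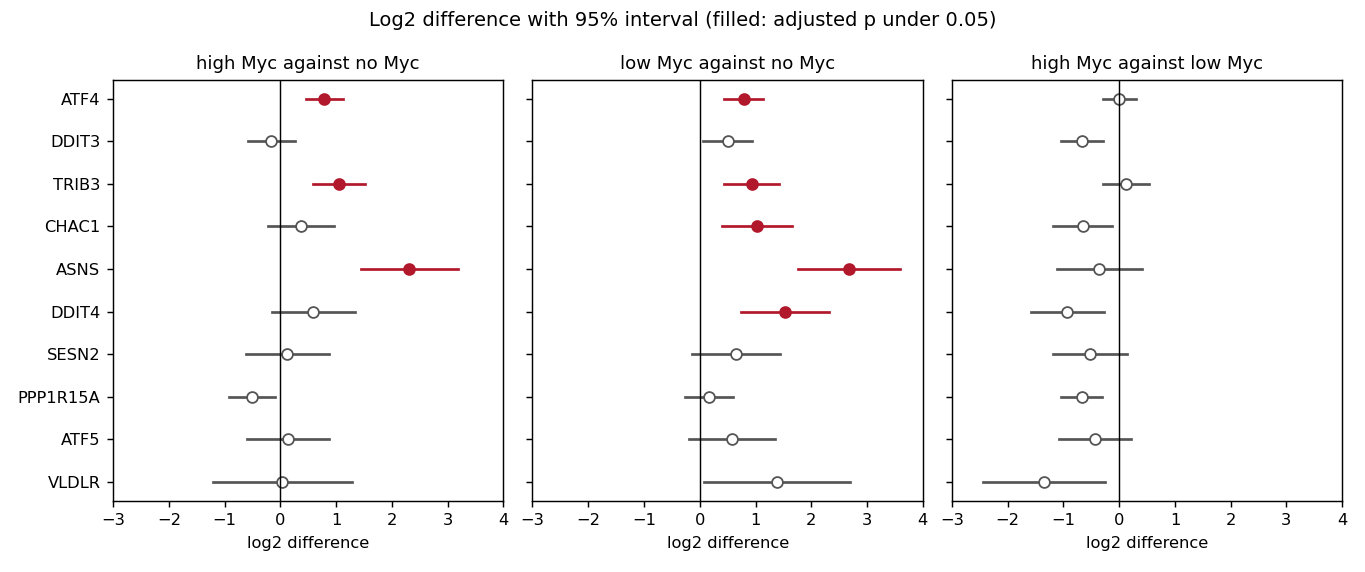
Log2 difference (horizontal axes) of the 10 genes in the 3 comparisons, first-named group minus second. Bars are 95% intervals from the limma fit, not adjusted for the number of genes, and filled red points have an adjusted p under 0.05. Against NoMyc, ASNS stands farthest to the right at 2.31 and 2.67, and against LowMyc 9 of the 10 HighMyc points lie left of 0.

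In HighMyc against NoMyc, 3 of the 10 genes were called, ATF4, TRIB3 and ASNS, all higher, where 23.2% of the 19775 genes tested were called and 14.2% were called higher. The median log2 difference of the 10 was 0.25 against -0.01 over all genes. With no overlap of the groups, 4 of the 10 were higher, DDIT4 beside the 3 called, where 20.6% of all genes were. In LowMyc against NoMyc, 5 of the 10 were called, the same 3 with CHAC1 and DDIT4, all higher, where 19.8% of all genes were called and 11.3% were called higher. The median was 0.86 against -0.0017 over all genes. With no overlap of the groups, 8 of the 10 were higher, where 20.0% of all genes were. The count of 5 calls was 3 without LowMyc replicate 1, where 7.90% of all genes were called higher, 2 without the library labelled NoMyc 1 (5.16% of all genes) and 1, ASNS, without NoMyc replicate 2 (7.08%). It was 7 without LowMyc replicate 2 (9.0%, 1779 genes), with DDIT3 and VLDLR added. None of the 7 other probe sets of the 10 genes was called in any comparison, where 17.0% of 54675 probe sets were called in HighMyc against NoMyc, 14.4% in LowMyc against NoMyc and 1.57% in HighMyc against LowMyc. Both comparisons share the NoMyc arrays and are not independent.

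In HighMyc against LowMyc, 0 of the 10 genes were called by limma, where 3.60% of all genes were called and 1.27% were called lower. At an unadjusted p under 0.05, 5 of the 10 were lower and 0 higher, DDIT3, CHAC1, DDIT4, PPP1R15A and VLDLR, where 6.42% of all genes were lower at that p. The 10 genes deviated together on several arrays, as given below, so the 5 do not count as separate observations. The median difference was -0.59 against 0.0019 over all genes, and DDIT3 and PPP1R15A were lower with no overlap of the groups, where 4.66% of all genes were lower without overlap. Weighting the arrays by their estimated quality gave 4 calls, all lower, DDIT3, DDIT4, PPP1R15A and VLDLR, where 3.88% of all genes were called lower with those weights. Leaving out HighMyc replicate 2 gave 2 calls, DDIT4 and PPP1R15A, where 2.97% of all genes were called lower. Leaving out LowMyc replicate 2 also gave 2, DDIT3 and VLDLR, where 1.26% of all genes were called lower.

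Most of the 10 genes were high on the same array within a group. HighMyc replicate 2 held the highest value of its group for 9 of the 10 genes, while 24.1% of all genes were highest on that array. All 10 genes lay above their group mean there, by a median of 0.41 and up to 0.85 (log2), and all 10 lay below it on HighMyc replicate 1, by up to 0.72. In LowMyc, replicate 1 was highest for 8 of the 10 genes, against 36.2% of all genes, and all 10 lay above the group mean, by a median of 0.23. MYC had the lowest value of its group on HighMyc replicate 2, 11326. That array also departed from its group outside the 10 genes. CDH1 read 130 there and 23.8 to 30.9 on the other HighMyc arrays. Without HighMyc replicate 2, 588 of all genes were called lower in HighMyc than in LowMyc, against 252 with it. What sets the array apart was not tested.

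The spread within groups was wide for several of the genes. The residual SD of VLDLR exceeded that of 99.1% of all genes, that of ASNS 97.0%, and those of SESN2, DDIT4 and ATF5 95.4%, 95.3% and 95.1%, whereas ATF4 lay at 49.2%. The other lists varied in this. Highest on HighMyc replicate 2 were 8 of 10 p53 targets, 11 of 15 other ATF4 and CHOP targets, 8 of 11 enzymes of amino acid synthesis and 6 of 8 heat shock genes, but 5 of 12 ATF4-linked tRNA synthetases, 4 of 8 NRF2 targets, 5 of 10 transporters and 7 of 15 eIF2 genes. On LowMyc replicate 1 the counts of the first 4 lists were 6, 7, 7 and 1, and those of the last 4 were 9, 5, 3 and 4. Of 11 bZIP factors that can pair with ATF4, 8 were highest on HighMyc replicate 2 and 5 on LowMyc replicate 1. The GAPDH excess of the 3' over the 5' end was lowest in its group on both arrays, 0.03 and 0.01. That of ACTB was lowest in HighMyc on replicate 2 (-0.049) but in LowMyc on replicate 3 (-0.074, against -0.029 on replicate 1). The part of either in the pattern was not tested.

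**Figure D3:**
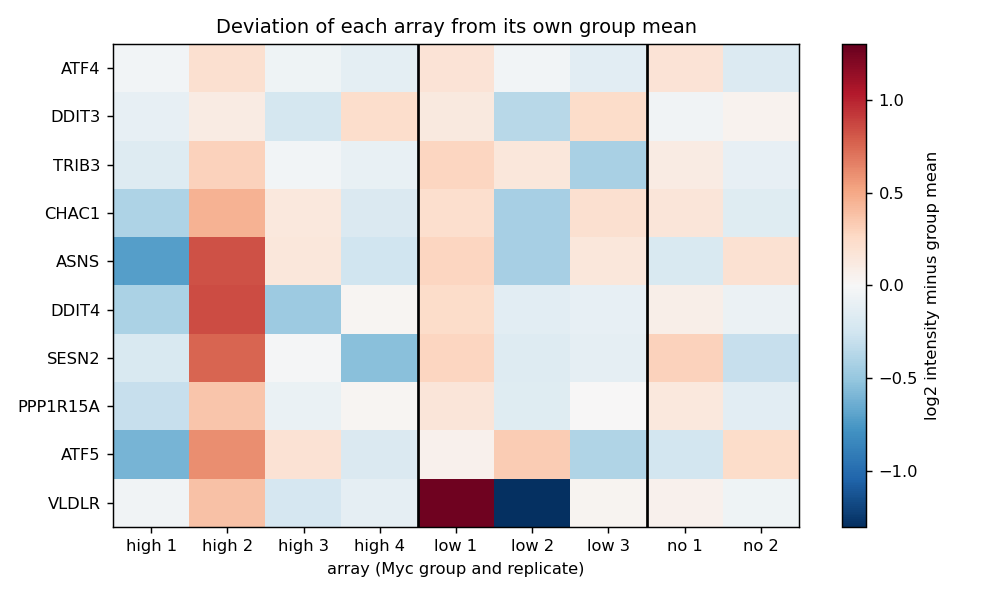
Log2 intensity minus the mean of its own group, for the 10 genes (rows) on the 9 arrays (columns, grouped by Myc level, replicate number below). Red is above and blue below the group mean. HighMyc replicate 2 and LowMyc replicate 1 are above the mean for all 10 genes, and HighMyc replicate 1 is below it for all 10.

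Upstream of ATF4, 7 of the 8 subunits of eIF2 and its exchange factor eIF2B rose in HighMyc and 4 of the 8 in LowMyc. The subunit EIF2S3 was not called in either (0.16 and -0.18), nor were EIF2B1, EIF2B4 and EIF2B5 in LowMyc (0.37, 0.35 and 0.50). Of 15 genes of eIF2, eIF2B, the eIF2 kinases and their regulators, 9 were higher and 1 lower in HighMyc than in NoMyc, and 5 higher and 1 lower in LowMyc than in NoMyc. Over all genes, 14.2% were called higher in HighMyc and 11.3% in LowMyc. Without either NoMyc array the 9 became 5, and without the library labelled NoMyc 1 the 5 became 3. EIF2S1, the subunit that the kinases phosphorylate, rose by 1.68 ± 0.18 in HighMyc (adjusted p = 0.000342) and 1.53 ± 0.19 in LowMyc (adjusted p = 0.00106). EIF2B3 rose by 1.43 and 1.02, and IMPACT, an inhibitor of the kinase GCN2, by 1.55 in HighMyc. EIF2AK2, the kinase PKR that senses double-stranded RNA and is also induced by interferon, fell by 1.35 in HighMyc and by 1.78 in LowMyc. The other eIF2 kinases, EIF2AK1, EIF2AK3 and EIF2AK4, were not called in either group. Their differences were 0.42, -0.17 and 0.86 in HighMyc and 0.35, -0.32 and 0.66 in LowMyc. Among 11 bZIP factors that can pair with ATF4, CEBPB rose by 1.69 ± 0.26 in HighMyc and 1.005 ± 0.28 in LowMyc, JUND fell by 1.05 in HighMyc and BATF rose by 2.15 in LowMyc. The LowMyc calls of CEBPB and BATF and that of JUND were lost without the library labelled NoMyc 1 (0.77, 1.60 and -0.77), and those of CEBPB and BATF also without LowMyc replicate 1 or 2, CEBPB further without NoMyc replicate 2 and in a fit of LowMyc and NoMyc alone.

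Amino acid genes known as ATF4 targets rose in most cases. Of 11 measured enzymes of amino acid synthesis, 8 were higher in HighMyc and 7 in LowMyc than in NoMyc (median 1.44 and 1.19), and none lower. PSAT1 of serine synthesis led at 4.19 ± 0.36 and 4.15 ± 0.38, followed by CBS of cysteine synthesis at 2.71 in HighMyc and 2.55 in LowMyc, where it was not called without the library labelled NoMyc 1. Of 10 transporters, 5 and 7 were higher and none lower. Beside both lists, 14.2% of all genes were called higher in HighMyc and 11.3% in LowMyc. SLC7A1, a carrier of cationic amino acids, rose by 2.96 in both groups and SLC7A5, a carrier of large neutral ones, by 3.42 ± 0.28 and 2.16 ± 0.30. SLC7A11, the cystine carrier, rose by 1.73 ± 0.43 in LowMyc, a call lost without LowMyc replicate 1 or either NoMyc array. In LowMyc the 7 enzymes and the 7 transporters became 4 and 4 without the library labelled NoMyc 1, and the transporters were also 4 without LowMyc replicate 1 or NoMyc replicate 2.

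Most aminoacyl-tRNA synthetases measured were higher in HighMyc and in LowMyc than in NoMyc. The sets linked and not linked to ATF4 were not tested against each other. Over all genes, 14.2% were called higher in HighMyc and 11.3% in LowMyc. Of 12 measured genes in the ATF4-linked set, 10 and 11 were higher in HighMyc and LowMyc than in NoMyc (median 1.37 and 1.25), among them XPOT, the tRNA exporter and no synthetase itself (2.32 and 1.78), EPRS1 (1.86 and 1.48) and GARS1 (1.71 and 1.69). Of 5 measured cytosolic synthetases outside that set, all 5 were higher in both (median 1.08 and 0.96), led by FARSB (1.91 and 1.73). In LowMyc, without the library labelled NoMyc 1, these counts were 7 and 2, and the 5 were 3 without NoMyc replicate 2. TGATGNAA was found for 7 of 11 genes of the ATF4-linked set and for 0 of 6 of the other, beside 5 of 9 transporters and 0 of 7 enzymes of amino acid synthesis. The first set was chosen for its known link to ATF4, so this contrast may follow from that choice. These counts cover listed genes with a promoter window, measured or not, and the 7 include MARS1, which was not measured.

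**Figure D4:**
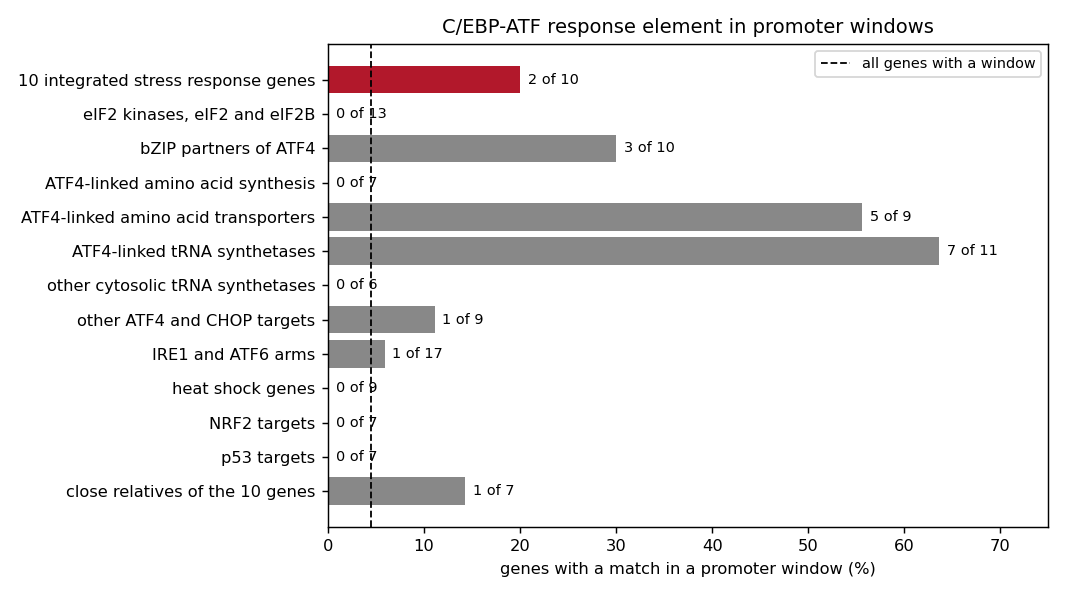
Share of genes (horizontal axis, in percent) with TGATGNAA on either strand of a RefSeq promoter window, 250 bases before to 50 after a start, for the 10 genes (red) and the lists described (grey), with counts. The dashed line marks the 4.46% of all genes, and the ATF4-linked tRNA synthetases reach 63.6%.

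Targets of ATF4 and CHOP outside amino acid supply were called about as often as all genes were (23.2% and 19.8%). Of 15 measured, 3 were higher and 1 lower in HighMyc, and 2 higher and 1 lower in LowMyc, against NoMyc (median 0.10 and 0.17). EIF4EBP1, a translation repressor, rose by 2.16 ± 0.19 and 1.34 ± 0.20, ERO1A, an oxidase of the endoplasmic reticulum, by 1.73 and 1.63, and VEGFA by 1.77 in HighMyc, lost without NoMyc replicate 2 (1.27, adjusted p = 0.102). TXNIP, an inhibitor of thioredoxin, fell by 2.55 in HighMyc and by 3.89 in LowMyc. EIF4EBP1 was also higher in HighMyc than in LowMyc (0.81 ± 0.17, adjusted p = 0.0364), though in only 2 of the 9 fits that left out 1 array. The other 6 pathway genes called between HighMyc and LowMyc, all higher, were GCLC (0.91, in 7 of the 9 fits), SLC43A1 (0.82, in 6), TXNRD1 (0.99, in 5), SLC7A5 (1.26, in 3), ALDH18A1 (0.82, in 3) and ERN1 (0.96, in 1). With EIF4EBP1 they were 2 of 10 transporters, 2 of 8 NRF2 targets and 1 of 11 enzymes of amino acid synthesis. The rest were 1 of 15 other ATF4 and CHOP targets and 1 of 17 genes of the other unfolded protein response arms. The remaining pathway lists gave no call in that comparison. Over all genes, 3.60% were called between HighMyc and LowMyc, and 1.27% were called lower. Of 10 p53 targets, 1 rose and 2 fell in HighMyc and 1 rose and 1 fell in LowMyc, and the 2 became 1 without either NoMyc array. TP53INP1 fell by 2.12 in HighMyc, a call lost without the library labelled NoMyc 1. In LowMyc TP53INP1 fell by 2.78.

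The other arms of the unfolded protein response showed 6 of 17 genes higher and 1 lower in HighMyc, and 5 higher and 2 lower in LowMyc, than in NoMyc. Over all genes, 14.2% were called higher in HighMyc and 11.3% in LowMyc, shares that also apply to the heat shock genes and NRF2 targets below. The 1 lower in HighMyc, HERPUD1 (-0.92), was not called without HighMyc replicate 1, 2 or 4 or either NoMyc array, and 2 were lower without LowMyc replicate 3. In LowMyc the 2 lower became 1 without the library labelled NoMyc 1 and 0 without NoMyc replicate 2. HSPA5, the chaperone BiP, rose by 1.08 ± 0.19 and 0.90 ± 0.20, and MANF by 1.57 in both. In LowMyc ERN1, the sensor IRE1, fell by 1.203 and HERPUD1 by 1.09. Without either NoMyc array the 6 became 2, and the 5 became 0 without the library labelled NoMyc 1 and 2 without NoMyc replicate 2. Leaving out LowMyc replicate 1, 2 or 3 gave 2, 3 or 8 in place of the 5. The LowMyc calls of HSPA5 and HERPUD1 were lost without either NoMyc array, that of HERPUD1 also in a fit of LowMyc and NoMyc alone, those of MANF in both groups without the library labelled NoMyc 1, and that of ERN1 without NoMyc replicate 2. Of 8 heat shock genes, 5 rose in each group, led by the mitochondrial chaperonins HSPE1 (2.37 and 1.92) and HSPD1 (1.86 and 1.66), and 3 of them without either NoMyc array. In LowMyc that count was also 3 without LowMyc replicate 1. Of 8 NRF2 targets, 4 rose in HighMyc, and 2 rose and 1 fell in LowMyc, with GCLM of glutathione synthesis at 1.96 and 1.76. The 2 became 1 without either NoMyc array and 4 without LowMyc replicate 3. The 1 that fell, GCLC (-0.68), was lost without HighMyc replicate 3, LowMyc replicate 2 or 3 or either NoMyc array, with array weights and in a fit of LowMyc and NoMyc alone. Where each gene was the median over its probe sets and not the brightest, the calls of SLC7A1 in HighMyc, of FARSB, HSPD1, GCLM and ERN1 in LowMyc, of JUND in HighMyc and of TP53INP1 in both groups were lost, as were those of ALDH18A1, TXNRD1 and ERN1 between HighMyc and LowMyc.

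**Figure D5:**
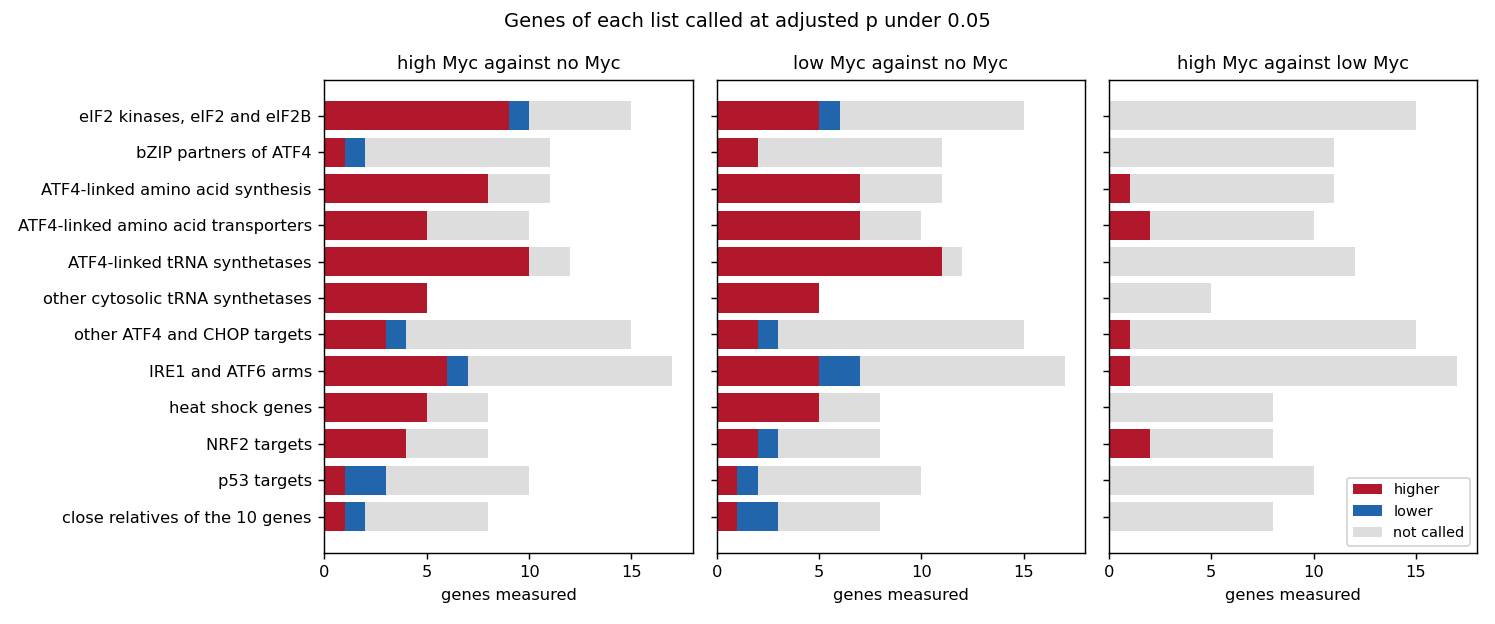
Number of measured genes (horizontal axes) of each list that were called higher (red), called lower (blue) or not called (grey) in the 3 comparisons, at an adjusted p under 0.05. All 5 other cytosolic tRNA synthetases are red in both comparisons with NoMyc, and few genes are called between HighMyc and LowMyc.

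Close relatives of the 10 genes gave calls in both directions. Of 8 measured, 1 was higher and 1 lower in HighMyc, and 1 higher and 2 lower in LowMyc, against NoMyc. Over all genes, 23.2% were called in HighMyc against NoMyc and 19.8% in LowMyc against NoMyc. CHAC2, which like CHAC1 degrades glutathione, read 500 to 908 in HighMyc, 435 to 914 in LowMyc, and 94.6 and 69.4 in NoMyc. CHAC2 rose by 3.05 ± 0.32 and 3.07 ± 0.34 and in all 9 fits that left out 1 array. Sestrin 3, SESN3, read 166 to 501 in HighMyc, 48.0 to 210 in LowMyc, and 1667 and 825 in NoMyc. SESN3 fell by 2.23 in HighMyc and by 3.27 in LowMyc, and SESN1 fell by 1.27 in LowMyc. The SESN3 call in HighMyc was lost without HighMyc replicate 2, 3 or 4 or either NoMyc array, and that in LowMyc without the library labelled NoMyc 1. SESN3 was not called in either group with the median of its probe sets. SESN1 was not called in a fit of LowMyc and NoMyc alone, nor without LowMyc replicate 2 or the library labelled NoMyc 1. PPP1R15B, the constitutive counterpart of PPP1R15A, read 1283 to 1773, 1401 to 1731, and 1192 and 1005 in the 3 groups, and with TRIB1, TRIB2, DDIT4L and LRP8 gave no call in any comparison with all arrays. TRIB1 was called in LowMyc against NoMyc (0.91) without HighMyc replicate 2, with array weights and in a fit of those groups alone. It was called in HighMyc against LowMyc (-0.79) without HighMyc replicate 2 and with array weights. PPP1R15B was called in LowMyc against NoMyc (0.54) without HighMyc replicate 2 or LowMyc replicate 3, after repeated quantile normalization and with array weights.

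The genes whose levels tracked the 10 most closely over the 9 arrays were found by the mean absolute difference of centred log2 values among 19774 genes. For ATF4 they were GHITM, GMFB and ATPAF1, at 0.07 to 0.08, with a range of 1.18 for ATF4 itself. Most of the nearest genes, such as UBXN7 for SESN2 (0.07) and ELK2AP for DDIT3 (0.09), were on none of the lists above. A few were genes of those lists. HYOU1, a chaperone of the endoplasmic reticulum, was nearest to ATF5 (0.07), PCK2 nearest to PPP1R15A (0.10), and the 3 nearest included HSPA5 for TRIB3 (0.08), SLC7A11 for DDIT4 (0.18) and CDKN1A for CHAC1 (0.14). For ASNS the nearest, MCUR1, lay at 0.25, with a range of 3.33 for ASNS. Among the 10 genes themselves the closest pairs were ATF4 with TRIB3 (0.15) and DDIT3 with PPP1R15A (0.20).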

How the data were processed

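Total RNA of P493-6 cells was extracted with Qiagen RNeasy, labelled with biotin and hybridised to single-colour Affymetrix arrays, per the labels' protocols. The authors deposited 1 intensity per probe set on a linear scale, summarised by RMA per the submitters' processing notes. Its version and the genome build are not given in the sources used here. This summary scales the arrays to each other, so a change in total RNA is not seen. The deposited distributions were still not the same. Their 90th percentile was 487 on LowMyc replicate 3, 551 and 525 on the NoMyc arrays, and 633 on HighMyc replicate 2. Log2 of the deposited intensity was fitted with limma 3.58.1 in R 4.3.3 on all 9 arrays (3 group means, eBayes, 6 residual degrees of freedom, two-sided). P-values were adjusted by Benjamini-Hochberg over 19775 genes, each represented by its probe set of highest mean, or over 54675 probe sets, and called under 0.05. Median intensities were 75.3 to 80.2 per array, and the number of arrays limits the precision. The procedure was tested on simulated data with independent noise per gene and array, a setting that does not cover genes deviating together on an array. Of 54675 probe sets, 41097 had 1 platform symbol, 1801 several and 11777 none. Symbols were updated through the Entrez identifier for 41043. Promoter windows came from RefSeq (GRCh38.p14) and covered all 10 genes.

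The 10 genes and the 18 lists were chosen with earlier results of these data known. Named were the 10 genes, MYC, up to 4 called genes per list and comparison by size, the close relatives, and the 3 nearest patterns per gene. Of 182 list entries, 170 were measured, and the others are not analysed here. Alternatives were normalization, a filter on dim genes, the probe set summary, the prior, array weights, 2 groups only, stricter thresholds, the replicate number as a block, and a fit without each array.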

Additional observations from a re-analysis of the deposited data

How the results depend on the processing

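Counts of the 10 genes under the alternatives were as follows. HighMyc against NoMyc gave 3 higher in the fit reported, and 2 to 3 with 1 array left out, and 0 lower, with 0 to 1 on leaving out an array. LowMyc against NoMyc gave 5 higher, with 1 to 7 on leaving out an array, 2 at an adjusted p under 0.01 and 3 at 2-fold or more. HighMyc against LowMyc gave 0 lower, with 0 to 2 on leaving out an array, 1 (PPP1R15A) after repeated quantile normalization and 4 with array weights. Not called in the reported fit, the following changed sign. SESN2 and ATF5 in HighMyc against NoMyc were -0.028 and -0.061 after repeated quantile normalization, and VLDLR -0.003 with array weights. TRIB3 in HighMyc against LowMyc was -0.037 with array weights and ATF4 0.042 with the replicate block. With 1 array left out, SESN2, ATF5 and VLDLR in HighMyc against NoMyc spanned -0.17 to 0.42, -0.10 to 0.38 and -0.089 to 0.11, and ATF4 and TRIB3 in HighMyc against LowMyc -0.071 to 0.088 and -0.087 to 0.27. The replicate numbers share no stated origin, so same-numbered arrays were not taken as pairs in the fit reported. Their deviations correlated at 0.25 to 0.47 for replicate 1, 0.03 to 0.10 for replicate 2 and -0.31 for replicate 3. Whether the replicate 1 arrays share an origin was not tested. With the replicate block 3 genes were called in HighMyc and 4 in LowMyc against NoMyc, CHAC1 falling out (0.95, adjusted p = 0.124). The LowMyc calls of SLC7A11, CEBPB and HERPUD1 were also lost with the block, where 4 of 10 transporters and 3 of 17 genes of the other unfolded protein response arms were higher in LowMyc than in NoMyc. Of the 7 pathway genes called between HighMyc and LowMyc, GCLC alone was called with the block. Without either NoMyc array the group is 1 array, whose spread is taken to be that of the other groups. Near the lowest intensities, as for VLDLR, differences are compressed.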
